A study of Homo sapiens with 6 samples.

Results

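The miR-29 family was followed in small RNA sequencing data of K562 cells, an established human erythroleukemia cell line that can be driven towards the erythroid or the megakaryocytic lineage. Its members were chosen by name, as the mature arms of the miR-29a/b-1 and miR-29b-2/c clusters. All 7 arms are listed among the 28846 small RNAs of the counts, of which 2596 are microRNAs. The control cells carried the empty lentiviral vector SIEW, which expresses GFP only, and the RUNX1 cells carried SIEW RUNX1, which expresses human RUNX1 and GFP. The 2 conditions were compared in 3 independent transductions each, harvested after 10 days in culture, to ask which microRNAs change with the hematopoietic transcription factor RUNX1. Both conditions share the parental line and the GFP vector backbone, and the RUNX1 transcript itself is not measured in a small RNA library.

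MicroRNAs are cut from hairpin precursors as a pair of arms, of which one, the guide, is usually loaded into Argonaute proteins while the other, the passenger, is mostly degraded. The guide finds its target mRNAs mainly through its seed, bases 2 to 8. The miR-29 guides are the 3p arms. They are known for repressing collagens and other matrix genes, the DNA methyltransferases DNMT3A and DNMT3B and the survival factor MCL1, and in myeloid leukemia they are mostly described as tumour suppressors.

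The mature sequences are shown because the guides share 1 seed while the 5p arms tell the loci apart. They were taken from RefSeq (GRCh38.p14), in which all 7 arms matched by name, and are written 5′ to 3′ with the seed in capitals.
hsa-miR-29a-3p: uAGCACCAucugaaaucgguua
hsa-miR-29b-3p: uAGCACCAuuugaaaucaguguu
hsa-miR-29c-3p: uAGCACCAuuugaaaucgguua
hsa-miR-29a-5p: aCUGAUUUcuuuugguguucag
hsa-miR-29b-1-5p: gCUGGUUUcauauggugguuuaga
hsa-miR-29b-2-5p: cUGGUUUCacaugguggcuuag
hsa-miR-29c-5p: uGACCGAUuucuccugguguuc

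No other mature microRNA of the reference had the guides' seed AGCACCA, which 3 names share. Counted from the 5′ end, miR-29c-3p differed from miR-29a-3p by 1 substitution, C10U. miR-29b-3p differed from miR-29a-3p by 4 over the 22 bases compared (C10U, G18A, U21G and A22U). It is also 1 base longer and ends in AGUGUU, a motif known to direct miR-29b to the nucleus, which miR-29a-3p and miR-29c-3p lack. The 5p arms have 4 different seeds, although miR-29b-1-5p and miR-29b-2-5p were identical at 20 of 22 bases when set side by side.

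The family comes from a pair of loci, both on the minus strand. On GRCh38, MIR29A lies at chr7:130876747-130876810 and MIR29B1 at chr7:130877459-130877539, 648 bases apart. In GENCODE, MIR29B1 lies inside an exon of LINC-PINT-202, a lincRNA transcript, whose end overlaps MIR29A by 2 bases. The chromosome 7 hairpins also lie inside the lincRNA genes AC016831.6, on the same strand, and LINC00513, on the opposite strand, outside their exons. MIR29C at chr1:207801852-207801939 and MIR29B2 at chr1:207802443-207802523, with 503 bases between them, lie in the same exon of the lincRNA transcript MIR29B2CHG-203. The hairpins of miR-29b are shown because both yield the same 3p arm, with the 5p and then the 3p arm in capitals.
MIR29B1: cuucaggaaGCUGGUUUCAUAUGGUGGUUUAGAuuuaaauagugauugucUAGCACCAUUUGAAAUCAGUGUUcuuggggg
MIR29B2: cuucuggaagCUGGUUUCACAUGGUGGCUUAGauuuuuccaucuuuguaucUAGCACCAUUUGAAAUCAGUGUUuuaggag

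A count of miR-29b-3p therefore cannot be assigned to a locus: the hairpins are identical over 25 bases there, the arm itself and 2 bases before it. The miR-29b 5p arms differ between the loci and can be assigned by sequence. How reads with mismatches were counted is not given in the sources used here.

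Total counts ranged from 1618248 in control replicate 1 to 15245007 in RUNX1 replicate 1. Levels are given as CPM, each count relative to the library size after TMM scaling in edgeR, and 3 counts, taken as the floor, came to 0.26 to 1.44 CPM. Replicates differed by more than sampling noise, and each was counted as 1 sample. The TMM factors were 1.23 to 1.31 in control and 0.735 to 0.866 in RUNX1 samples. All arms are 22 to 24 bases long, and 1 read covers a whole arm, so levels were compared without a length correction. Changes are log2 fold changes of RUNX1 over control, each with its standard error (SE), from the quasi-likelihood test of edgeR. The study's thresholds defined altered small RNAs: P below 0.05 and a log2 change no smaller than 0.5 either way. Adjusted p-values (Benjamini-Hochberg) cover all 947 small RNAs tested.

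RUNX1 samples had more miR-29. Of the 7 arms, 6 passed the filter on low counts and 5 were altered, all 5 higher in RUNX1 samples. Of the 5, miR-29b-2-5p passed the filter only through its RUNX1 samples, so it could hardly come out lower. Among all small RNAs tested, 57.6% were altered and 28.0% were altered and higher. The median log2 fold change was 2.22 over the 6 arms and -0.0639 over all small RNAs tested. In all, 265 small RNAs were higher and 280 lower, but with scaling to library size only 120 were higher and 521 lower, and the median of all fell to -0.762. The same 5 arms remained altered and higher under that scaling, at log2 changes from 0.70 for miR-29c-5p to 2.61 for miR-29b-2-5p. In such bulk samples, fewer cells of a type and less RNA per cell cannot be told apart.

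hsa-miR-29a-3p, the most abundant arm, had 410, 381 and 392 CPM in control replicates 1 to 3, and 2110, 2200 and 1650 CPM in RUNX1 replicates 1 to 3. The lowest RUNX1 sample lay far above the highest control sample. Its change was 5.04-fold, by edgeR 2.33 on the log2 scale (SE 0.147, adjusted p = 2.66e-06). hsa-miR-29c-3p had 111, 120 and 132 CPM with the empty vector against 1120, 1170 and 643 CPM with RUNX1, again with no overlap. RUNX1 replicate 3 was the lowest of its condition for both guides. That replicate stood apart beyond miR-29: 612 small RNAs were altered without it, against 545 with all samples and 521 to 547 without any other replicate. The change of miR-29c-3p was 3.01 (SE 0.234, edgeR adjusted p = 8.58e-06), or 8.06-fold.

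The passenger arms were far less abundant. hsa-miR-29a-5p had 2.39, 2.11 and 3.16 CPM with the empty vector against 12.3, 11.8 and 9.49 CPM with RUNX1, a change of 2.11 (SE 0.25, edgeR adjusted p = 0.000101). hsa-miR-29c-5p had 20.6, 21 and 22.4 CPM with the empty vector against 66.9, 66.9 and 37.9 CPM with RUNX1, a change of 1.42 (SE 0.227, edgeR adjusted p = 0.000604). Neither arm's conditions overlapped, and RUNX1 replicate 3 was again the lowest RUNX1 sample. Across all small RNAs tested, 31.4% had all RUNX1 samples above all control samples.

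The miR-29b 5p arms, nearly identical in sequence, differed in their change. hsa-miR-29b-2-5p, from chromosome 1, was counted 1, 3 and 8 times with the empty vector against 75, 47 and 44 times with RUNX1. In CPM these are 0.478, 0.372 and 1.05 against 6.51, 7.52 and 6.42, with no overlap. The fitted change, 3.30 (SE 0.36, edgeR adjusted p = 6e-05), was the highest among the 6 arms. It rests on few control counts, in an arm that passed the filter only through its RUNX1 samples. The change was 4.05 without control replicate 3, which had the most control counts, and 2.88 without control replicate 2. hsa-miR-29b-1-5p, from chromosome 7, had 3.35, 3.97 and 3.03 CPM with the empty vector against 3.47, 3.2 and 5.4 CPM with RUNX1, and the conditions overlapped. It did not pass the thresholds at 0.20 (SE 0.289, edgeR adjusted p = 0.577), and with scaling to library size only its value turned to -0.49.

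**Figure D1:**
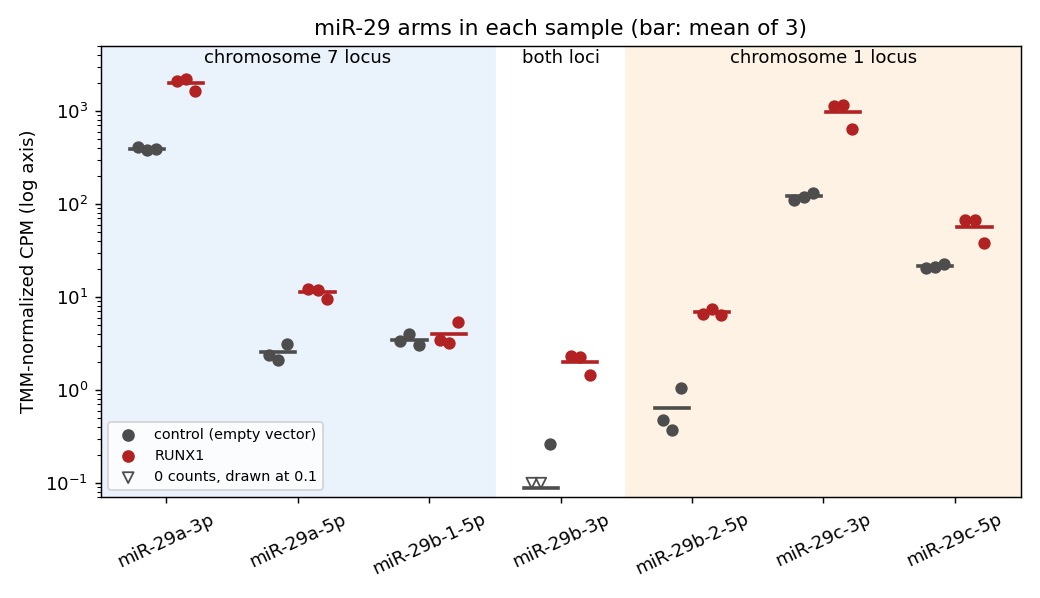
TMM-normalized CPM of the 7 miR-29 arms on a log axis, 1 point per sample, with control samples in grey, RUNX1 samples in red and a bar at the mean of 3; arms are grouped by locus, and open triangles stand for 0 counts. The conditions are apart for each arm but miR-29b-1-5p, which had 3.03 to 3.97 CPM in control and 3.2 to 5.4 CPM in RUNX1 samples.

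hsa-miR-29b-3p was hardly counted. It had 0, 0 and 2 counts with the empty vector against 27, 14 and 10 counts with RUNX1, and it failed the filter. The zeros allow up to 1.44 and 0.372 CPM in control replicates 1 and 2. Over the pooled libraries the rate was 18.4 times higher in RUNX1 samples (95% exact interval 4.83 to 156, counting error only). RUNX1 samples had 1.46 to 2.34 CPM of it, below the miR-29b-2-5p arm of the same samples.

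The low level of miR-29b-3p stands beside that of other arms with several loci. Among microRNAs in the counts whose sequence was found in the reference hairpins, 151 occurred in 2 or more hairpins, and 85.4% of these had at most 10 counts over all 6 libraries. Of the 1872 found in 1 hairpin, 61.5% did. How reads matching several loci were counted is not given in the sources used here, and its part in the level of miR-29b-3p was not tested.

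**Figure D2:**
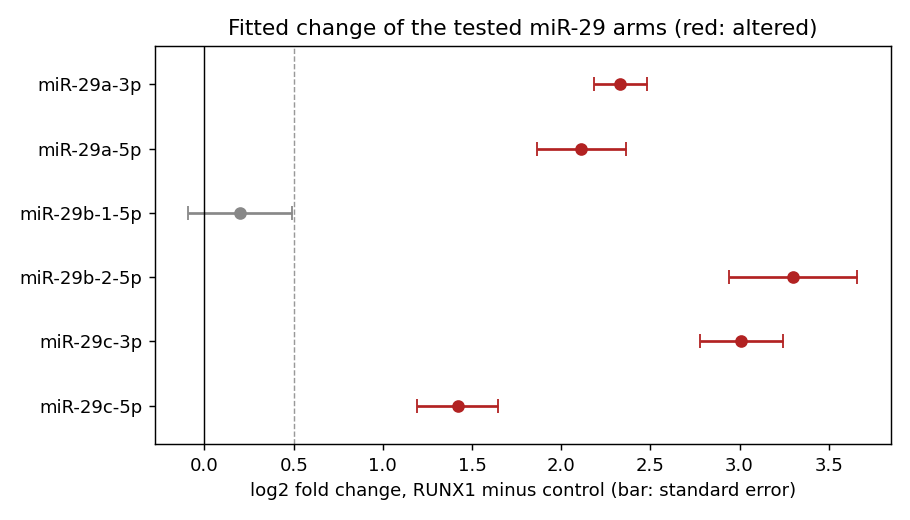
Fitted log2 fold change, RUNX1 minus control, of the 6 tested miR-29 arms with its standard error; red points were altered and the dashed line marks 0.5. Values run from 0.20 for miR-29b-1-5p to 3.30 for miR-29b-2-5p, and miR-29c-5p (1.42) lies well below miR-29c-3p (3.01).

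The guides were also summed, since they share a seed and differ by few bases. The pool had 521, 501 and 524 CPM with the empty vector against 3220, 3380 and 2290 CPM with RUNX1. It rose by 2.52 on the log2 scale (SE 0.167, edgeR adjusted p = 3.13e-06), or 5.75-fold, and by 1.81 with scaling to library size only. miR-29a-3p made up 78.7, 76 and 74.8% of the pool in control and a smaller part, 65.3, 65.2 and 71.9%, with RUNX1. miR-29c-3p made up nearly all the rest, and miR-29b-3p at most 0.0726% in any sample. Of the microRNA counts, the 7 arms together took 0.0847% ± 0.00179 with the empty vector against 0.26% ± 0.0282 with RUNX1 (SD over 3 samples; exact two-sided permutation test, p = 0.1). The difference was 0.175 percentage points, and 0.282 when the total excluded miR-10a-5p, which had more counts than any other microRNA.

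Ratios within a sample need no scaling between libraries, and are given as log2 ratios of counts, with 0.5 added to each. Ratios and the share gave 9 comparisons by exact two-sided permutation tests, for which the smallest p is 0.1 at 3 samples a condition. The 8 with p = 0.1 had an adjusted p of 0.113 (exact, Benjamini-Hochberg over the 9), so none could pass 0.05.

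For the arms of the miR-29a hairpin the conditions overlapped. miR-29a-3p over miR-29a-5p was 7.28, 7.46 and 6.92 with the empty vector against 7.41, 7.53 and 7.43 with RUNX1 (exact permutation p = 0.3). The difference of 0.235 fell to 0.0869 without control replicate 3 and was 0.353 without control replicate 2. For those of miR-29c they did not. miR-29c-3p over miR-29c-5p was 2.42, 2.51 and 2.56 with the empty vector against 4.06, 4.13 and 4.08 with RUNX1, a difference of 1.59 with little spread (SD 0.0706 and 0.0354, n = 3 each, exact permutation p = 0.1). RUNX1 replicate 3, low for both arms, was level with the others in their ratio. Such shifts occurred elsewhere, among 73 hairpins whose arms each matched 1 hairpin and had at least 10 counts in every sample. Of these 73, 8, miR-29c itself included, shifted at least as far towards the 3p arm, and 13 shifted at least as far in either direction. The median size of the shift, either way, was 0.613. In 64.4% of the 73 the conditions did not overlap.

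Between the loci, the direction depended on the arms compared. miR-29c-3p over miR-29a-3p was -1.88, -1.67 and -1.57 with the empty vector against -0.915, -0.911 and -1.36 with RUNX1, a difference of 0.645 (exact permutation p = 0.1). These guides differ by 1 base, and reads counted under the wrong guide would alter this ratio and their shares of the pool. miR-29b-2-5p over miR-29b-1-5p was -2.32, -3.22 and -1.47 with the empty vector against 0.899, 1.21 and 0.247 with RUNX1. miR-29b-1-5p was thus the more counted 5p arm in every control sample, and miR-29b-2-5p in every RUNX1 sample (difference 3.12, exact permutation p = 0.1). miR-29c-5p over miR-29a-5p, a ratio chosen after the counts were seen, went the other way, at 2.98, 3.28 and 2.8 with the empty vector against 2.44, 2.49 and 1.99 with RUNX1 (difference -0.713, exact permutation p = 0.1).

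Within each locus the hairpins also differed, in ratios likewise chosen after the counts were seen. On chromosome 7, miR-29a-5p over miR-29b-1-5p was -0.447, -0.893 and 0.0601 with the empty vector against 1.81, 1.86 and 0.805 with RUNX1 (difference 1.92, exact permutation p = 0.1). On chromosome 1, miR-29c-5p over miR-29b-2-5p was 4.86, 5.6 and 4.33 with the empty vector against 3.35, 3.14 and 2.55 with RUNX1 (difference -1.91, exact permutation p = 0.1). Neither set of samples overlapped. miR-29b-3p over the sum of its 5p arms was higher by 2.22 (exact permutation p = 0.1), a value that rests on 2 control counts and came to 1.46 without control replicate 2.

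**Figure D3:**
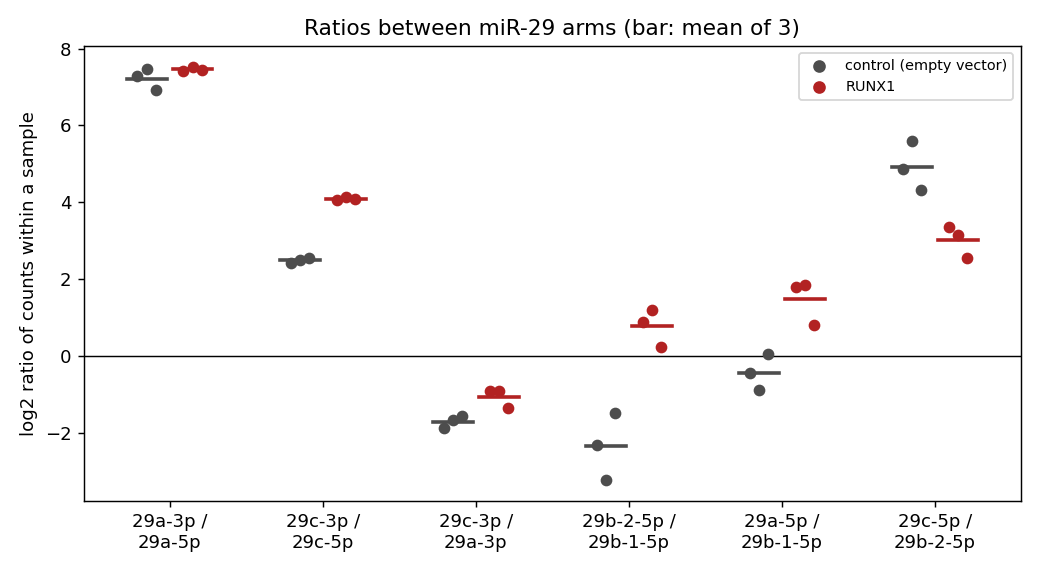
Log2 ratios of counts between miR-29 arms within each sample, with control samples in grey, RUNX1 samples in red and a bar at the mean of 3. The conditions overlap for miR-29a-3p over miR-29a-5p, and lie apart for the other ratios drawn, with the miR-29c arms 1.59 apart and the miR-29b 5p arms 3.12 apart.

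Likeness of other microRNAs to the guides was measured as the root mean square difference of log2 CPM, centred on the mean of the 6 samples, where 0 is the same pattern. Nearest to miR-29a-3p were miR-653-5p (0.093), miR-222-3p (0.12), miR-340-3p (0.126), miR-628-5p (0.131) and miR-181c-5p (0.16). Their log2 fold changes lay between 2.32 and 2.52. Nearest to miR-29c-3p were miR-340-5p (0.0891), miR-489-3p (0.133), miR-10a-5p (0.152), miR-766-3p (0.169) and miR-190a-5p (0.247). miR-340-5p, at 426 to 488 CPM in control and 2720 to 4410 CPM in RUNX1 samples, also had its lowest RUNX1 level in replicate 3. The guides themselves were 0.366 apart, farther than any of these, but the neighbours were picked as the 5 nearest to each guide. Where the guides' distance ranks among all microRNAs was not determined.

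Like the miR-29 guides, 8 listed microRNAs are known to target enzymes of DNA methylation or the Polycomb complex. The list was chosen with earlier results of these data known, so its values describe its members and are no test of such a set. Of these 8, 6 were higher in RUNX1 samples and 0 lower, with a median log2 fold change of 1.24. Of all microRNAs tested, 200 of 598 were higher and 135 lower, with a median of 0.106. With scaling to library size only, 3 of the 8 were higher and 1, miR-101-3p, was lower, where 120 of the 947 small RNAs tested were higher. miR-143-3p, which targets DNMT3A, rose by 6.74 on the log2 scale (SE 0.156, edgeR adjusted p = 8.59e-09). miR-148a-3p and miR-148b-3p, which target DNMT1 and DNMT3B, had 1.90 and 1.15, and miR-26a-5p and miR-26b-5p, which target EZH2, had 1.33 and 1.56. The value of miR-26a-5p rests on 6, 17 and 11 control counts, and its sequence occurs in 2 hairpins, as does that of miR-29b-3p. miR-22-3p, known to target TET enzymes, had 0.69. miR-152-3p (0.38) and miR-101-3p (0.10) did not pass the thresholds. The changes of miR-29a-3p and miR-29c-3p lay below that of miR-143-3p and above the others.

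Other markers, likewise chosen with earlier results known, moved as well. The erythroid miR-451a was present in every control sample, at 2710 to 3160 CPM, and of 4 erythroid arms 3 were lower and 1 higher in RUNX1 samples. Of 24 markers of other cell types, 12 were tested, 9 were higher and 2 lower, and 3 had 0 counts throughout. Of all 947 small RNAs tested, 265 were higher and 280 lower. Among the 9, miR-1 and miR-205-5p would not have passed the filter without their RUNX1 samples, so they could hardly come out lower. With scaling to library size only, 5 of the 12 were higher and 3 lower, where 120 of the 947 small RNAs were higher and 521 lower. Under that scaling, 0 of the erythroid arms were higher. The summed level of the 24 was 63100 to 65300 CPM in control and 65700 to 79400 CPM in RUNX1 samples. This sum held opposite moves. The lymphoid or myeloid markers summed to 13800 to 15500 CPM with the empty vector and to 37100 to 54000 CPM with RUNX1, and miR-142-3p among them had a log2 fold change of 2.16. The endothelial markers, miR-126-3p and miR-126-5p, summed to 47900 to 50900 CPM with the empty vector and to 13600 to 40200 CPM with RUNX1. The paper also measured miR-126, and miR-223 of the lymphoid or myeloid markers, by q-RT-PCR in transduced K562 cultures. Which cells of a culture carried them was not tested. The fibroblast and smooth muscle markers summed to 70.9 to 75.3 and to 1950 to 2160 CPM. Most of that control sum was miR-145-5p, which rose 1.76-fold, and nearly all of the RUNX1 sum was miR-143-3p, which is on both lists. Of the same markers, miR-199a-5p had 0 counts in all 6 libraries. miR-214-3p, which failed the filter, had 0, 1 and 0 counts with the empty vector against 21, 9 and 30 with RUNX1. The epithelial markers, of which 3 of 4 tested were higher, summed to 55.8 to 63.6 CPM with the empty vector and to 166 to 180 CPM with RUNX1. The part of other cells in the miR-29 levels was not tested. Library names of the conditions carry different letters, and if they stand for separate preparations, the effects of preparation and vector cannot be told apart.

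RefSeq promoter windows of the host genes were searched for the RUNX motif TGTGGT or TGCGGT on both strands, without regard to other motifs. The window of 300 bases at the start of LINC-PINT-202, chr7:130913261-130913560, held none. Of the other 3 windows of LINC-PINT, which lie upstream of that transcript, an overlapping pair at chr7:131109867-131110166 and chr7:131109876-131110175 held 2 each and the last held none. As these windows overlap, their motifs can be the same ones. That pair spans chr7:131110161, the GENCODE start of transcripts of AC016831.6, whose bounds contain both chromosome 7 hairpins. On the minus strand nearly all of the pair lies downstream of that start, so the bases upstream of it were hardly searched. The window of MIR29B2CHG, chr1:207822654-207822953, held none, but it is not at the GENCODE start of MIR29B2CHG-203, which was not searched. Over all 35116 promoter windows, 19.6% held at least 1.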

How the data were processed

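Small RNA of K562 cells was sequenced in 3 control and 3 RUNX1 samples. The authors prepared TruSeq libraries from 1000 ng of total RNA, sequenced them on a HiSeq2000, demultiplexed with CASAVA 1.8.2 and used the OASIS platform. The deposited values are whole-number counts per small RNA, without normalization. The aligner is not given in the sources used here. The labels name hg19, but the counts carry no coordinates, so positions are those of GRCh38.

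Counts were tested in R 4.3.3 with edgeR 4.0.16: filterByExpr (minimum count 10, minimum total 15), TMM factors, glmQLFit and glmQLFTest with condition as the only term. Standard errors are log2 changes over the root of F. Fits were tested on simulated data. Alternatives were DESeq2 1.42.0, RLE factors, library size only, microRNAs only, no filter, at least 10 counts in every sample, adjusted P, a log2 fold change of 1, another count added to ratios, other denominators, the replicate block and each replicate left out. Members and lists, including markers, were chosen with earlier results of these data known. Named microRNAs are the members, the 5 nearest to each main guide, the methylation and Polycomb list and 6 arms with several loci. Intervals and floors cover counting error only.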

Additional observations from a re-analysis of the deposited data

How the results depend on the processing

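The number of altered miR-29 arms was 5, and 3 with at least 10 counts required in every sample, which left 3 arms to test. Leaving out 1 replicate gave 5 to 6, the sixth being miR-29b-3p, which then passed the filter, and testing without a filter also gave 6. The value of miR-29b-1-5p, not altered in any fit, was -0.49 with library size only. All other alternatives kept the direction of each arm's change and its side of the thresholds. The log2 fold change of the guide pool was 1.81 with library size only and 2.77 without RUNX1 replicate 3. Replicate numbers did not pair the samples: the deviations of same-numbered samples correlated at -0.0904 to 0.0178. With the replicate block 5 arms were altered, the guide pool had 2.50, and 546 small RNAs were altered in place of 545. The ratios and the share kept their direction under each alternative, and their blocked tests cannot go below 0.25. Depth limits miR-29b-3p and the control values of miR-29b-2-5p and miR-29a-5p most.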

Other observations

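Other arms with several loci, taken from a list chosen with earlier results known, are given with the counts of the opposite arm of each hairpin over the 6 libraries. miR-24-3p had 20 counts, against 68 of miR-24-1-5p and 2391 of miR-24-2-5p. miR-181a-5p had 6, against 2764 of miR-181a-3p and 2805 of miR-181a-2-3p. miR-26a-5p had 159, against 250 of miR-26a-1-3p and 1702 of miR-26a-2-3p. miR-16-5p had 305, above the 200 of miR-16-1-3p and below the 10387 of miR-16-2-3p. miR-103a-3p had 1564, above the 161 of miR-103a-2-5p. miR-125b-5p was found in 1 reference hairpin sequence although the reference names it for 2 genes, and had 3 counts, against 2 of miR-125b-1-3p and 74 of miR-125b-2-3p. miR-29b-3p, usually the guide, had 53 counts, against 159 of miR-29b-1-5p and 178 of miR-29b-2-5p.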
